A study of Homo sapiens with 16 samples.

Results

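The genes described here were HSF1, which encodes heat shock factor 1, and 9 chaperone and co-chaperone genes that this factor is known to control: HSPA1A, HSPA1B, HSPA8, DNAJB1, HSPH1, BAG3, HSP90AA1, HSPB1 and HSPD1. They were taken by symbol from a table of read counts, in which they make up 10 of 25221 genes. They were chosen by their change with the small molecule Ro 08-2750 (Ro) in each pair of libraries, measured in these same counts, so these changes are given as a description with no p-value. The difference between the cell lines played no part in the choice and was tested.

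The study asked how Ro, a compound that competes for the RNA binding of the RNA-binding protein MSI2, acts on the transcripts of myeloid leukemia cells after a short treatment. MOLM13 is an acute myeloid leukemia line carrying the MLL-AF9 fusion, and K562 derives from a chronic myeloid leukemia in blast crisis and carries BCR-ABL. Cells of each line were given 20 μM Ro for 4 h or the solvent DMSO as control, with 0.1% DMSO in the medium, and the 4 groups held 4 libraries each. The labels number the libraries as pairs 1 to 4 within each line, and a library is named here by its group and pair number. Each line is 1 line, so a difference between the lines is a difference between MOLM13 and K562 and not between 2 diseases. Nothing in the labels says that the pairs were separate cultures, so p-values measure the spread between these libraries, which may be technical.

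Heat shock factor 1 is a transcription factor that chaperones hold inactive in unstressed cells. When misfolded proteins draw the chaperones away, it forms trimers, enters the nucleus and binds heat shock elements, which are inverted repeats of the unit nGAAn in promoters. Its targets encode the HSP70 and HSP90 machines, the J-domain proteins, nucleotide exchange factors and BAG proteins that serve them, and small heat shock proteins, and HSP90 is known for folding oncogenic kinases of leukemia such as BCR-ABL and FLT3.

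The promoters of the genes were searched for such repeats to show the sequence by which heat shock factor 1 is known to recognise its targets. The windows came from RefSeq (GRCh38.p14) and ran from 250 bases before to 50 bases after each listed start, and 9 of the 10 genes had at least 1 window, 13 windows in all. A run of 3 units, GAANNTTCNNGAA or TTCNNGAANNTTC on either strand, was in a window of 3 of the 9 genes, and in 166 of the 27305 genes with a window (0.608%). The shorter 2-unit run, GAANNTTC or TTCNNGAA, which lies inside every 3-unit run, was in a window of 7 of the 9 genes, against 16.2% of all genes with a window. BAG3 and HSPH1 held neither run in these windows, and HSF1 had no window. The 3-unit matches are given with the matched bases in capitals, on the strand of the gene (minus in all 3).
HSP90AA1, chr14:102087114-102087138, match 88 to 76 bases before the start: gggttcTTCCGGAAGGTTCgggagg
HSPA8, chr11:123062173-123062197, match 55 to 43 bases before the start: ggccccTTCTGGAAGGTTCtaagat
HSPA8, chr11:123062348-123062372, match 230 to 218 bases before the start: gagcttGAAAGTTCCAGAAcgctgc
HSPD1, chr2:197500062-197500090, 2 overlapping matches 245 to 228 bases before the start: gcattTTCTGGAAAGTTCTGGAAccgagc
A match describes these letters and is not a measured binding site.

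Counts per library totalled 3143129 to 43571060, with the smallest in K562 DMSO 2 and the next (4383241) in K562 DMSO 4. K562 DMSO 4 stood apart: its median correlation with the other libraries of its group was 0.945, against 0.960 to 0.981 in the other DMSO libraries. Changes with Ro in K562 that rest on it are given with and without it. Markers of each line were checked as the sum of a marker list. The summed level of the myelomonocytic list (FLT3, CD33, MPO, LYZ, CSF1R, SPI1, HOXA9, CD68) was 530 to 703 CPM (read counts scaled to a total of 1000000 per library) in MOLM13 and 143 to 299 CPM in K562, where HOXA9 was at 0 and MPO under 1 CPM. The summed level of the erythroid list (HBG1, HBG2, HBE1, HBZ, GATA1, KLF1, TAL1) was 1425 to 2758 CPM in K562 and 2.58 to 5.85 CPM in MOLM13, and HBE1 was at 0 in K562.

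Levels are given as CPM, scaled with the trimmed mean of M-values (TMM) method. The library kit reads the 3′ ends of transcripts, so that a count does not grow with transcript length. Levels of different genes can still be set side by side only roughly, because how reads were assigned to genes is not known. HSPE1, STUB1, HSPA6, HSPB2, HSPB9 and CRYAA, from the pathway lists described below, had 0 counts in all 16 libraries, with or without Ro. The cause was not tested. The order of genes by level therefore describes these counts only. In bulk RNA of this kind, fewer cells with a transcript and less transcript per cell cannot be told apart. The 10 genes together took 0.383 to 0.610% of all counts in the MOLM13 libraries and 0.463 to 0.735% in the K562 libraries. HSP90AA1 was first in every group and alone made up 49.2 to 67.8% of their summed level.

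The order below HSP90AA1 differed between the lines. In MOLM13 with DMSO, HSPD1 followed with a mean of 898 CPM, then HSPH1 (660 CPM), HSPA8 (418 CPM), DNAJB1 (148 CPM), HSPB1 (130 CPM), HSPA1B (44.1 CPM), HSF1 (17.3 CPM), BAG3 (16.0 CPM) and HSPA1A (1.05 CPM). The neighbours whose ranges over 4 libraries overlapped in that order were HSPH1 with HSPA8, DNAJB1 with HSPB1, HSPA1B with HSF1, and HSF1 with BAG3. In K562 with DMSO, HSPD1 (572 CPM) was followed by HSPA1A (377 CPM), HSPA8 (367 CPM), HSPH1 (176 CPM), HSPB1 (172 CPM), DNAJB1 (165 CPM), HSPA1B (145 CPM), HSF1 (30.1 CPM) and BAG3 (25.1 CPM). There, only HSP90AA1 from HSPD1 and HSPA1B from HSF1 were separated by their ranges, and all other neighbours overlapped. HSPA1A was the last of the 10 in MOLM13 and the third in K562, ranking 13588 and 307 among all genes of the table.

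**Figure D1:**
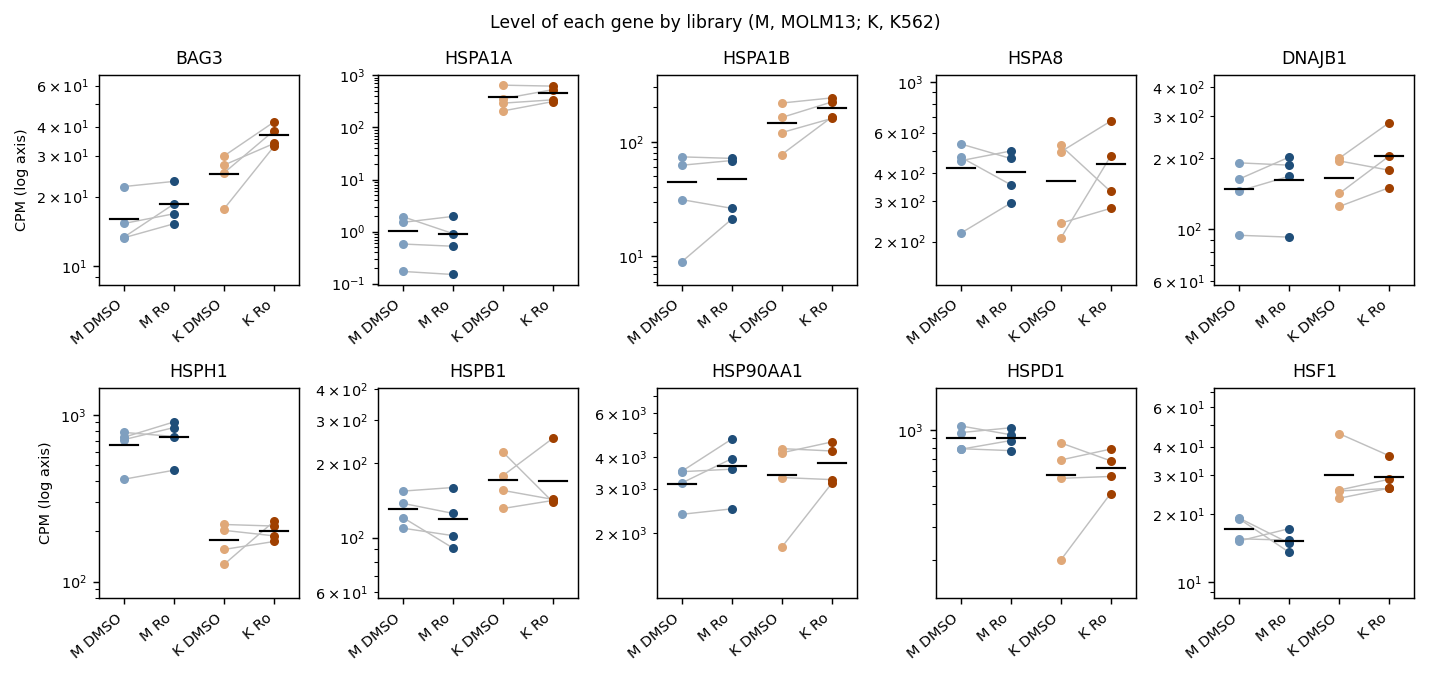
Level of each gene in each library, in CPM on a log axis, with 1 panel per gene, the 4 groups along the horizontal axis (M, MOLM13; K, K562), grey lines joining the DMSO and Ro libraries of a pair and black bars at the group means. HSPA1A lies at 0.150 to 1.96 CPM in MOLM13 and at 208 to 650 CPM in K562, and the BAG3 points of K562 with Ro all lie above those with DMSO.

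With Ro, the changes of these genes were small, and BAG3 was the gene whose values were higher with Ro in 8 of 8 pairs. In MOLM13, 0 of the 10 genes passed edgeR's quasi-likelihood test at an adjusted p under 0.05, as did 0% of the 15031 genes tested, of which 175 had an unadjusted p under 0.05. With the pair number as a block, again 0 of the 10 passed while 2.11% of all genes did (0.938% as higher with Ro). DESeq2 with the same block also called 0 of the 10, beside 266 of 15031 genes. In K562, 0 of the 10 passed as did 0% of the 15227 genes tested, of which 187 had an unadjusted p under 0.05. The block and DESeq2 again gave 0 of the 10, with 0 of all genes called by either. DESeq2 with the block called 2 genes, none of them among the 10. At an unadjusted p under 0.05, 0 of the 10 in MOLM13 and 1 of the 10 in K562 were counted in the fits without the block, and with the block 3 and 2 of the 10, beside 2585 and 322 of all genes. The median log2 change of the 10 genes was 0.065 in MOLM13 and 0.24 in K562, beside medians over all genes tested of 0.00043 and 0.021. Without K562 DMSO 4, the K562 median of the 10 genes was 0.11.

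HSF1, the regulator itself, was among the lowest of the 10 genes. In MOLM13 its level was 19.1, 15.2, 15.6 and 19.2 CPM with DMSO in pairs 1 to 4, and 13.5, 17.3, 15.4 and 14.9 CPM with Ro. The DMSO and Ro ranges overlapped, and the Ro library was lower in 3 of 4 pairs, with a log2 change of -0.16 ± 0.15 (SE, n = 4 in each group, and -0.14 ± 0.11 with the pair block). In K562 it was 25.7, 45.6, 23.6 and 25.4 CPM with DMSO, and 28.7, 36.4, 26.2 and 26.1 CPM with Ro. Pair 2 was the highest in both groups, the ranges overlapped, and the log2 change was -0.01 ± 0.22 (0.02 ± 0.14 with the pair block). Every K562 library was above every MOLM13 library. With DMSO, HSF1 was lower in MOLM13 than in K562 by a log2 difference of -0.78 ± 0.24 (edgeR, Benjamini-Hochberg adjusted p = 0.0211). That call was lost without MOLM13 DMSO 2 (-0.71), MOLM13 DMSO 3 (-0.72) or K562 DMSO 2 (-0.50).

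HSPA1A and HSPA1B encode the stress-inducible HSP70, the chaperone that binds exposed hydrophobic stretches of client proteins. They lie near each other on chromosome 6 (chr6:31815543-31817942 and chr6:31827738-31830254 in GRCh38.p14) and code for nearly the same protein. How the counting assigned reads that match both copies is not given in the sources used here, so each level is uncertain and the sum is given too. In MOLM13, HSPA1A was 0.578, 1.51, 1.93 and 0.172 CPM with DMSO, and 0.524, 1.96, 0.917 and 0.150 CPM with Ro. These levels rest on 3 to 39 counts per library, and both groups spread over more than 10-fold. The log2 change of -0.26 ± 0.78 (-0.27 ± 0.33 with the pair block) has an error larger than itself. In K562, HSPA1A was 357, 293, 208 and 650 CPM with DMSO, and 533, 340, 315 and 623 CPM with Ro. It was higher with Ro in 3 of 4 pairs, and the ranges overlapped with or without K562 DMSO 4, the highest of the 8 libraries. The log2 change was 0.27 ± 0.34 with that library and 0.68 ± 0.27 without it.

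HSPA1B stood at 31.2, 62.3, 73.8 and 8.94 CPM in MOLM13 with DMSO, and at 26.2, 68.5, 71.5 and 21.1 CPM with Ro. Pairs 1 and 4 were the low ones in both groups, and only pair 4 moved far, by 1.23 on the log2 scale, against -0.25, 0.14 and -0.04 in pairs 1 to 3. The log2 change was 0.11 ± 0.60, and 0.27 ± 0.14 with the pair block. With pair 4 left out, the estimate with the pair block was -0.009 ± 0.090. In K562, HSPA1B was 163, 77.3, 120 and 218 CPM with DMSO, and 222, 164, 160 and 242 CPM with Ro. It was higher with Ro in 4 of 4 pairs, as were 6.84% of the genes tested in K562, although the group ranges overlapped. Its log2 change was 0.45 ± 0.29 (0.71 ± 0.24 without K562 DMSO 4). The sum of both genes gave a log2 change of 0.10 ± 0.60 in MOLM13 (0.26 ± 0.14 with the pair block) and 0.32 ± 0.32 in K562 (0.38 ± 0.16 with the pair block, 0.69 ± 0.25 without K562 DMSO 4).

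Between the lines, HSPA1A showed the largest difference of the 10. Every K562 library was above every MOLM13 library for both genes. With DMSO, the log2 difference of MOLM13 from K562 was -8.46 ± 0.67 for HSPA1A (edgeR, Benjamini-Hochberg adjusted p = 2.94e-07). For HSPA1B it was -1.71 ± 0.51 (edgeR, adjusted p = 0.0149), a call that was lost without MOLM13 DMSO 1 (-1.57). Summed, the genes stood at 45.1 ± 30.3 CPM (SD, n = 4) in MOLM13 and 521 ± 245 CPM (SD, n = 4) in K562, a log2 difference of -3.53 ± 0.55 (edgeR, adjusted p = 0.000157).

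The split of reads between the copies also differed between the lines. HSPA1A took 1.82, 2.36, 2.56 and 1.89% of the HSPA1A and HSPA1B reads in the MOLM13 DMSO libraries 1 to 4, and 1.96, 2.78, 1.27 and 0.708% in the Ro libraries. In K562 it took 68.6, 79.1, 63.4 and 74.9% in the DMSO libraries and 70.5, 67.5, 66.3 and 72.1% in the Ro libraries. No MOLM13 library came near a K562 library in either treatment. The widest exact (Clopper-Pearson) 95% interval in MOLM13 ran from 0.498 to 4.59%, in MOLM13 DMSO 1 with 220 reads on both genes, and covers counting error only. With DMSO the means were 2.16 ± 0.360% and 71.5 ± 6.94% (SD, n = 4 each), a difference of -69.4 percentage points (exact permutation test, two-sided, p = 0.0286, the smallest that 4 against 4 libraries can give). The share was chosen for comparison after its values were seen.

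**Figure D2:**
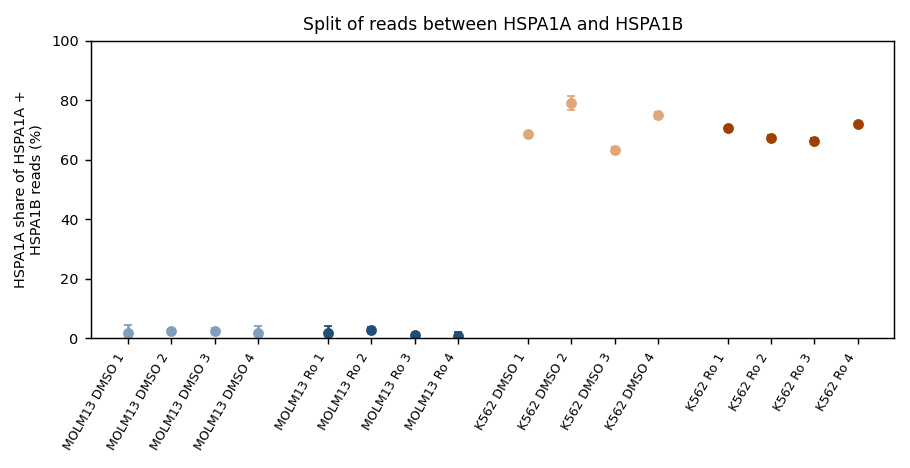
Share of the reads on HSPA1A and HSPA1B that were assigned to HSPA1A, in percent on the vertical axis, for each of the 16 libraries along the horizontal axis, with exact 95% binomial intervals as bars. The 8 MOLM13 libraries lie between 0.708 and 2.78% and the 8 K562 libraries between 63.4 and 79.1%.

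HSPA8 encodes HSC70, the constitutive HSP70 that also carries clients to chaperone-mediated autophagy, and holds 2 of the 3-unit runs printed above. MOLM13 cells held 468, 452, 535 and 217 CPM with DMSO, and 355, 498, 462 and 295 CPM with Ro. Pairs 2 and 4 were higher and pairs 1 and 3 lower with Ro, so the log2 change of -0.04 ± 0.27 (0.01 ± 0.094 with the pair block) joins pairs of both directions. DESeq2 with the pair block gave a larger SE, 0.20. The K562 libraries held 494, 527, 241 and 206 CPM with DMSO, and 673, 331, 280 and 472 CPM with Ro. The pairs ranged from a log2 change of -0.67 in pair 2 to 1.19 in pair 4, which holds K562 DMSO 4, and the estimate was 0.27 ± 0.35 with that library and 0.077 ± 0.32 without it. With DMSO, the lines overlapped and the log2 difference of 0.20 ± 0.35 did not pass (edgeR, adjusted p = 0.691). Its sign turned with scaling to total counts (-0.17) and with the Ro libraries in place of the DMSO libraries (-0.12).

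DNAJB1 encodes HSP40, the J-domain protein that delivers clients to HSP70 and stimulates its ATPase. Its level in MOLM13 was 93.8, 163, 191 and 145 CPM with DMSO, and 92.1, 202, 186 and 167 CPM with Ro. MOLM13 pair 1 was the lowest in both groups, the ranges overlapped, and the log2 change was 0.15 ± 0.26 (0.14 ± 0.074 with the pair block). In K562 it was 200, 194, 124 and 141 CPM with DMSO, and 283, 177, 150 and 204 CPM with Ro. It was higher with Ro in 3 of 4 K562 pairs, and the log2 change was 0.31 ± 0.23 (0.25 ± 0.23 without K562 DMSO 4). With DMSO, the lines overlapped, with a log2 difference of -0.15 ± 0.25 (edgeR, adjusted p = 0.683) that turned to 0.025 without MOLM13 DMSO 1.

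HSPH1 encodes HSP110, which releases ADP from HSP70 and works with it in taking apart aggregates. In MOLM13 its level was 734, 710, 784 and 411 CPM with DMSO, and 907, 839, 741 and 466 CPM with Ro. Pair 4 was the lowest in both groups, 3 of 4 pairs were higher with Ro, and the log2 change was 0.18 ± 0.25. In the fit with the pair block the estimate was nearly the same, 0.18, with an SE of 0.070. Levels in K562 were 203, 220, 156 and 127 CPM with DMSO, and 188, 215, 174 and 230 CPM with Ro. The log2 change by pair was -0.11, -0.03, 0.16 and 0.86, and the estimate was 0.20 ± 0.20 with K562 DMSO 4 and 0.079 ± 0.17 without it. HSPH1 was the 1 gene of the 10 that was higher in MOLM13 beyond the test's threshold: its lowest MOLM13 library was above its highest K562 library, and with DMSO the log2 difference was 1.91 ± 0.27 (edgeR, adjusted p = 6.1e-05).

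BAG3 encodes a co-chaperone that binds HSP70 and small heat shock proteins and steers clients to autophagy. MOLM13 cells held 15.3, 13.4, 22.1 and 13.3 CPM with DMSO, and 16.9, 18.6, 23.2 and 15.3 CPM with Ro. The Ro library was above the DMSO library in 4 of 4 pairs (10.2% of the genes tested in MOLM13 were), by 0.14, 0.47, 0.07 and 0.20 on the log2 scale, although the group ranges overlapped. In K562 it was 29.9, 25.3, 27.3 and 17.7 CPM with DMSO, and 41.9, 38.4, 33.8 and 32.9 CPM with Ro. Here the lowest Ro library was above the highest DMSO library, which held for 0.584% of the 15227 genes tested, while 0 of the 10 genes did so in MOLM13 (0.665% of the genes tested there), and the K562 pairs differed by 0.48, 0.60, 0.31 and 0.89 on the log2 scale. Over both lines, 0.964% of the 14320 genes tested in both were higher with Ro in 8 of 8 pairs. The log2 change was 0.23 ± 0.21 in MOLM13 (0.24 ± 0.098 with the pair block) and 0.55 ± 0.18 in K562 (0.57 ± 0.15 with the pair block), and it was 0.41 ± 0.14 without K562 DMSO 4.

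Between the lines, BAG3 with DMSO was lower in MOLM13 by a log2 difference of -0.65 ± 0.24 (edgeR, adjusted p = 0.0474), close to the threshold, and the ranges of the lines overlapped. This call was lost with no filter on low counts (-0.65) and when any 1 of 6 DMSO libraries was left out (MOLM13 DMSO 1, 2 or 4, or K562 DMSO 1, 2 or 3, with values of -0.62 to -0.56). With Ro, every K562 library was above every MOLM13 library.

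HSP90AA1 encodes the inducible HSP90, which folds kinases and steroid receptors in their last steps. In MOLM13 its level was 3516, 3158, 3504 and 2370 CPM with DMSO, and 4726, 3948, 3585 and 2491 CPM with Ro. The Ro library was higher in 4 of 4 pairs, and pair 4 was the lowest in both groups. The log2 change was 0.25 ± 0.21, and 0.23 ± 0.071 with the pair block. The K562 levels were 4164, 4329, 3321 and 1753 CPM with DMSO, and 4602, 4237, 3258 and 3147 CPM with Ro. Pairs 2 and 3 differed by -0.03 each and pair 4 by 0.84 on the log2 scale, and the log2 change was 0.18 ± 0.29 with K562 DMSO 4 and -0.04 ± 0.24 without it. With DMSO, the lines overlapped, with a log2 difference of -0.11 ± 0.28 (edgeR, adjusted p = 0.800). Its sign turned without MOLM13 DMSO 4 (0.015) and without K562 DMSO 2 (0.063).

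HSPB1 encodes HSP27, a small heat shock protein that holds unfolded proteins without using ATP. MOLM13 cells held 121, 109, 138 and 154 CPM with DMSO, and 90.8, 102, 125 and 159 CPM with Ro. The Ro library was lower in 3 of 4 pairs, the ranges overlapped, and the log2 change was -0.11 ± 0.19 (-0.13 ± 0.076 with the pair block). In K562 it was 178, 155, 131 and 222 CPM with DMSO, and 252, 143, 141 and 139 CPM with Ro. K562 Ro 1 stood alone above the other Ro libraries, pairs 1 and 4 moved in opposite directions by 0.50 and -0.67 on the log2 scale, and the log2 change was -0.02 ± 0.24 (0.13 ± 0.22 without K562 DMSO 4). The line difference with DMSO, -0.39 ± 0.22 on the log2 scale, did not pass (edgeR, adjusted p = 0.188), and did pass with scaling to total counts (-0.81, edgeR, adjusted p = 0.0139).

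HSPD1 encodes HSP60, the chaperonin of the mitochondrial matrix, and its printed window holds 2 overlapping 3-unit runs. In MOLM13 its level was 966, 786, 792 and 1049 CPM with DMSO, and 1025, 875, 773 and 941 CPM with Ro. Pairs moved by -0.16 to 0.16 on the log2 scale, the narrowest range over pairs of the 10 genes in MOLM13. The log2 change was 0.02 ± 0.14 (0.03 ± 0.068 with the pair block). The level in K562 was 688, 851, 549 and 200 CPM with DMSO, and 788, 682, 562.1 and 455 CPM with Ro. Pair 4 moved by 1.19 on the log2 scale, and the estimate was 0.13 ± 0.36 (0.27 ± 0.24 with the pair block) with K562 DMSO 4 and -0.15 ± 0.22 without it. With DMSO, the difference between the lines of 0.66 ± 0.35 on the log2 scale did not pass (edgeR, adjusted p = 0.150), and between the Ro libraries it was 0.54 and passed (edgeR, adjusted p = 0.0300).

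Pair by pair, the 10 genes did not move alike. In MOLM13 their median log2 change was -0.072, 0.21, -0.039 and 0.13 in pairs 1 to 4, and 4, 9, 2 and 7 of the 10 were higher with Ro. In K562 the median was 0.45, -0.076, 0.19 and 0.69, and 9, 3, 9 and 8 of the 10 were higher with Ro. Medians over all genes in the same pairs were -0.025 to 0.051. K562 pair 4, with the highest median, is the pair that holds K562 DMSO 4. The difference of the Ro effect between the lines (K562 minus MOLM13) was 0.33 ± 0.29 on the log2 scale for BAG3 and between -0.07 and 0.54 for the other genes, and 0 of the 10 passed. In that fit 0% of 16224 genes passed (edgeR, 218 at an unadjusted p under 0.05). The median difference of the 10 genes was 0.17, and 0.12 without K562 DMSO 4.

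**Figure D3:**
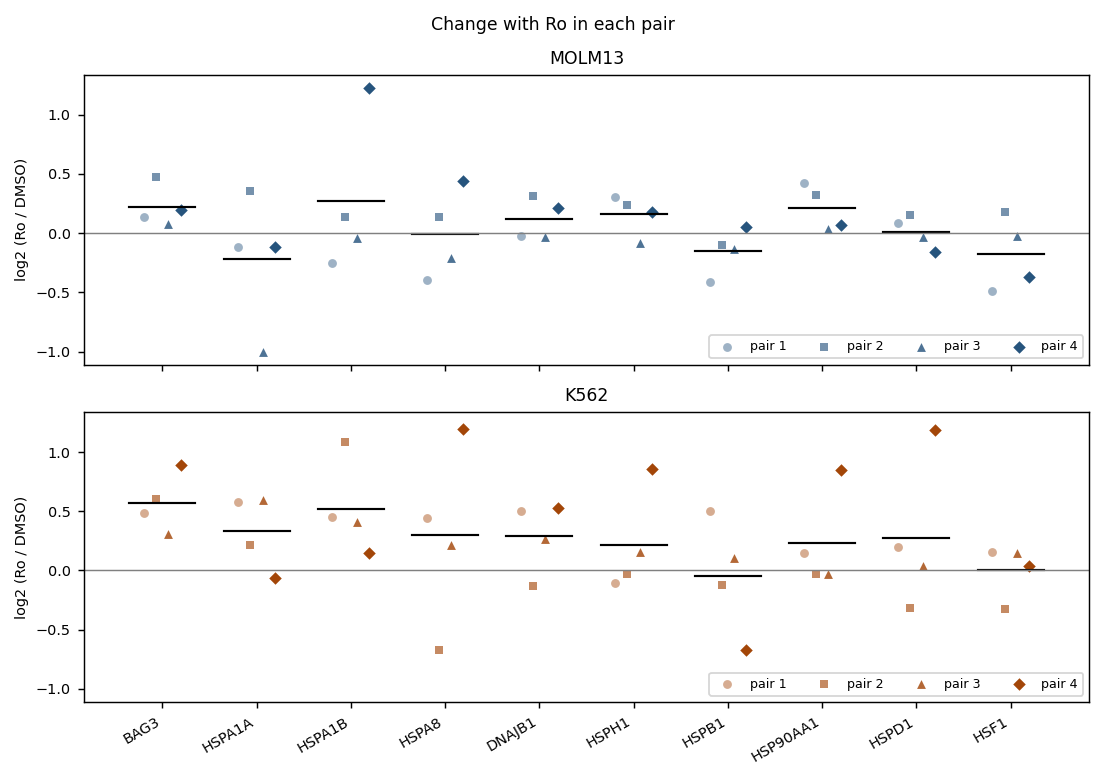
Change with Ro in each pair, as log2 of the Ro over the DMSO level on the vertical axis, for the 10 genes along the horizontal axis, with MOLM13 above and K562 below, 1 marker shape per pair and black bars at the mean of 4 pairs. BAG3 lies above 0 in 8 of 8 pairs, and the diamonds of K562 pair 4 reach 1.19 for HSPA8 and HSPD1 but lie at -0.67 for HSPB1.

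In K562 the count depended on which pairs were used. With pairs 1 and 3 alone, which leaves out both of the smallest libraries, the fit with the pair block called 4 of the 10 genes, all higher with Ro, where 2.33% of 15800 genes passed and 1.18% passed as higher. These were HSPA1A (0.59 ± 0.13), HSPA1B (0.43 ± 0.11), DNAJB1 (0.39 ± 0.11) and BAG3 (0.40 ± 0.11), log2 changes that rest on 2 pairs. As the genes were chosen by this same change, the count is a description and nothing is read from it against that share. With pairs 1 to 3 in the same fit, 0 of the 10 passed, as did 0 of all 15308 genes tested. The estimates for HSPA1A, HSPA1B, DNAJB1 and BAG3 were then 0.47, 0.64, 0.22 and 0.46 on the log2 scale.

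Between the lines, 5 of the 10 genes differed with DMSO: HSPH1 was higher in MOLM13, and HSPA1A, HSPA1B, HSF1 and BAG3 were higher in K562. The background was high, with 41.3% of the 15268 genes tested called, 21.1% higher and 20.3% lower in MOLM13, so 5 of 10 is near what all genes gave. Without K562 DMSO 4, the same 5 passed, beside 6407 of 15022 genes. The log2 differences of HSPA8, HSPD1 and HSP90AA1 were then 0.0065, 0.38 and -0.31. The ranges of the lines did not overlap for 4 of the 10 (HSPA1A, HSPA1B, HSF1 and HSPH1), against 39.4% of all genes. The median log2 difference of the 10 genes was -0.27, beside -0.0047 over all genes tested. With the Ro libraries in place of the DMSO libraries, 6 of the 10 passed, HSPD1 being added, where 54.3% of 15346 genes passed. Scaling to total counts moved the median of all genes to -0.41 on the log2 scale, and then HSPB1 joined the 5. In that fit 7031 of 15268 genes were called, 5008 of them lower in MOLM13.

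**Figure D4:**
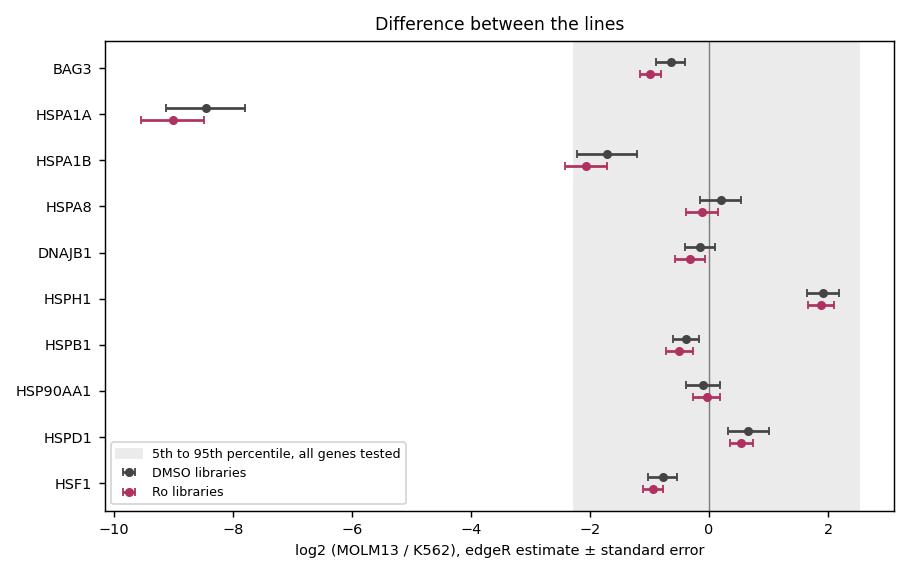
Difference between the lines as log2 of MOLM13 over K562 on the horizontal axis, for the 10 genes on the vertical axis, with edgeR estimates and standard errors for the DMSO libraries (dark) and the Ro libraries (red), and the 5th to 95th percentile of all genes with DMSO as a grey band. HSPA1A (-8.46) lies far outside the band, which runs from -2.26 to 2.51, and HSPH1 (1.91) lies furthest to the right of the 10.

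The wider pathway was followed through 91 other genes in 7 lists drawn from general knowledge of proteostasis. The lists were made with earlier results of these data known, so their changes with Ro are a description. Of these, 77 were tested in MOLM13 and 80 in K562. Without the block 0 passed in either line (edgeR). With the pair block 1 passed in MOLM13, DNAJB6 of the list of inducible heat shock factor 1 targets, which was higher with Ro and was also called by DESeq2 with the block, and 0 passed in K562. In that MOLM13 fit 2.11% of all genes passed, 0.938% as higher, so 1 of 77 is near the background. DNAJB6, a J-domain protein that holds back aggregation, was 131, 157, 171 and 162 CPM with DMSO and 167, 188, 186 and 197 CPM with Ro in MOLM13. It was higher in 4 of 4 pairs although the ranges overlapped, with a log2 change of 0.27 ± 0.069 (edgeR with the pair block). Without the block the log2 change was 0.26 ± 0.12 and did not pass. In K562 it was also higher in 4 of 4 pairs, by 0.40, 0.18, 0.20 and 0.62 on the log2 scale. Its log2 change there was 0.36 ± 0.14 (edgeR with the pair block), which did not pass. Of all genes tested, 10.2% in MOLM13 and 6.84% in K562 were higher in 4 of 4 pairs.

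In MOLM13 the medians of the lists lay on both sides of that of all genes, and in K562 they lay above it. In MOLM13 with the pair block, the list of inducible targets had a median log2 change of 0.047 over 17 genes tested, and the HSP70 partners (J-domain and BAG proteins) -0.035 over 18. The HSP90 partners stood at -0.050 over 10, the mitochondrial chaperones at -0.020 over 9, and the chaperonin TRiC with prefoldin, which folds actin and tubulin, at -0.071 over 14. The HSF family with the proteins that bind heat shock factor 1 stood at 0.032 over 8. The list of small heat shock proteins had 1 gene tested, HSPB11 (0.19), and 1 gene is not read as a value for that class. In K562 with the pair block and 4 pairs, the medians were 0.14 over 18 inducible targets and 0.10 over 19 HSP70 partners. They were 0.070 over 10 HSP90 partners, 0.032 over 9 mitochondrial chaperones and 0.13 over 14 TRiC and prefoldin genes. The HSF family stood at 0.16 over 8, and the list of small heat shock proteins at 0.21 over 2 genes (HSPB11 and HSPB3). All genes tested had medians of 0.0015 and 0.020 in the same fits, and the 10 genes 0.082 and 0.29. With pair 4, which holds K562 DMSO 4, left out of the K562 fit, the medians in the same order were 0.051, 0.090, 0.035, 0.019, 0.075, 0.12 and 0.053, and 0.11 for the 10 genes, beside 0.0019 for all genes. In K562 with 4 pairs, 63 of the 80 genes tested were higher with Ro, each of them short of the threshold, and in MOLM13 31 of 77 were higher. With pair 4 left out of the K562 fit, 12 of 18, 15 of 19, 6 of 10, 5 of 9, 12 of 14, 7 of 8 and 1 of 2 were higher, in the order of lists above. Within single pairs, 47.9 to 54.1% of all genes tested were higher with Ro in K562, and 45.8 to 49.1% in MOLM13. These shares are by single pair and the counts by the sign of a fit, so they are unlike measures. The share of all genes with a positive estimate in the same fits was not counted.

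**Figure D5:**
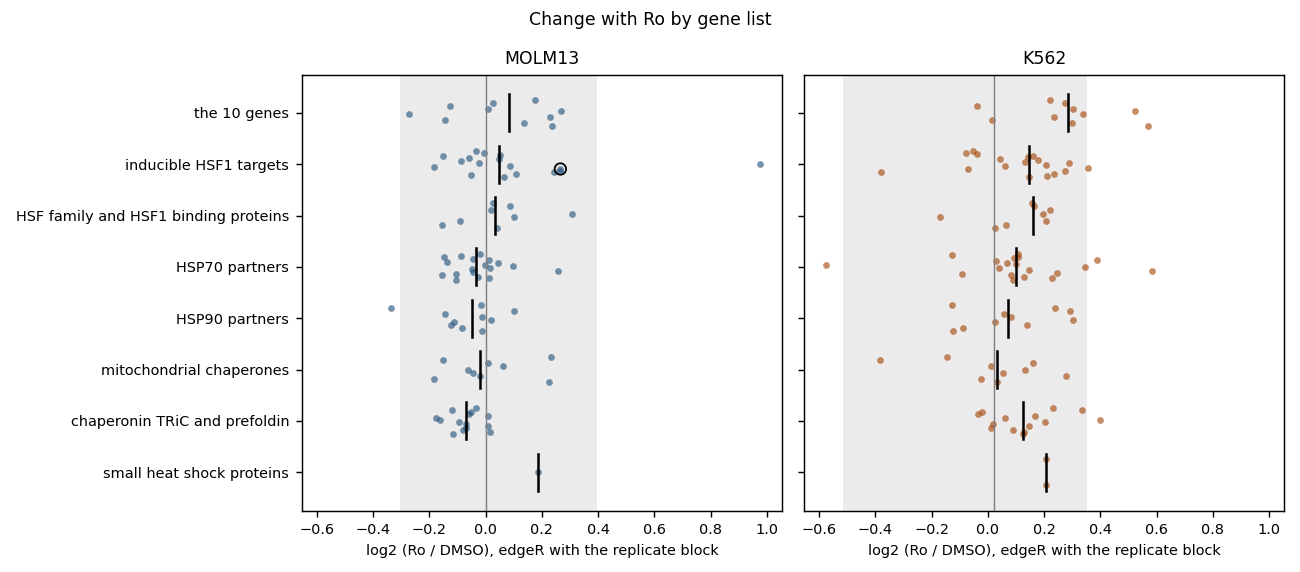
Log2 change with Ro in the fit with the pair block on the horizontal axis, for each tested gene (points) of the 10 genes and of 7 other gene lists on the vertical axis, with MOLM13 on the left and K562 on the right, black bars at the list medians, a grey band and line for the 5th to 95th percentile and the median of all genes, and a ring around each gene that passed. The 1 ringed point is DNAJB6 (0.27) in MOLM13, and the median of the 10 genes is 0.082 in MOLM13 and 0.29 in K562 (0.11 with pair 4 left out).

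Between the lines with DMSO, 78 of the 91 pathway genes were tested, and 8 were higher and 20 lower in MOLM13, beside 21.1% and 20.3% of all genes tested. By list, higher and lower genes were 1 and 6 of 17 inducible targets and 0 and 2 of 8 of the HSF family. They were 4 and 4 of 19 HSP70 partners, 2 and 4 of 10 HSP90 partners, and 1 and 0 of 9 mitochondrial chaperones. Of 14 TRiC and prefoldin genes, 0 were higher and 3 lower. The 1 gene tested of the small heat shock protein list, HSPB11, was lower. The largest differences by list toward MOLM13 were AHSA1 (0.59 ± 0.19), an activator of the HSP90 ATPase, BAG1 (1.06 ± 0.23), SUGT1 (0.87 ± 0.30) and CLPB (0.88 ± 0.27), all on the log2 scale. Toward K562 they were HSPA1L (-2.99 ± 0.51), HDAC6 (-1.72 ± 0.32), DNAJB5 (-1.71 ± 0.57), TTC4 (-1.74 ± 0.34), VBP1 (-1.42 ± 0.26) and HSPB11 (-2.31 ± 0.21). HSPA1L, a member of the HSP70 family, is related in sequence to HSPA1A and HSPA1B, and its level of 0.0573 to 0.794 CPM in MOLM13 and 2.03 to 3.86 CPM in K562 with DMSO is uncertain for the same reason. DNAJB5 had 2 to 33 counts per library and TTC4 at most 43 in MOLM13, which limits their precision. With 1 library left out, DNAJB5 entered only 4 of the 8 fits. Calls for AHSA1, SUGT1, CLPB and DNAJB5 were lost under some alternatives, AHSA1 and SUGT1 with the block and all but DNAJB5 with total-count scaling. Pair numbers do not tie libraries of different lines, so the block matches libraries arbitrarily in this comparison.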

How the data were processed

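RNA of MOLM13 and K562 cells was made into libraries with a 3′ mRNA kit. The authors deposited whole-number counts of reads per gene, not normalized, for 25221 genes and 16 libraries. The submitters' processing notes name Trim Galore, STAR 2.5.3a, SAMtools 1.5 and hg38. The counting program, annotation and strand setting are not given in the sources used here. Spike-in RNA was added, and the table holds 0 spike-in rows.

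The members and the gene lists were chosen with earlier results of these data known. Groups came from the labels. A gene entered a fit if 4 or more of the 8 libraries compared had 10 counts or more. Genes were fitted with TMM scaling and edgeR's quasi-likelihood test (edgeR 4.0.16, limma 3.58.1, R 4.3.3), with Benjamini-Hochberg adjustment over all genes tested and a threshold of 0.05. Log2 levels used a prior count of 2. An SE given with an edgeR estimate is the absolute log2 change divided by the square root of the test's F statistic. With the block it could be smaller than the spread of the pairs would give. In MOLM13 it was 0.094 for HSPA8 and 0.14 for HSPA1B, where DESeq2 with the block gave 0.20 and 0.32. The SDs of their changes over 4 pairs were 0.37 and 0.66. The fit of the Ro effect difference used all 16 libraries. The study names no pairing for its test, so the pair block was an alternative. Same-numbered libraries deviated together (mean r = 0.57, lowest 0.384, in MOLM13, and mean r = 0.281, lowest 0.110, in K562, against -0.162 and -0.0927 for other numbers), so the numbers were taken as pairs. In the smallest library 3 counts are 0.954 CPM before TMM scaling, and in the largest 0.0689 CPM. No libraries of a group looked like 1 library deposited again (chi-square over degrees of freedom at least 10.1).

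Of the pathway lists, genes past the threshold for Ro with or without the block were named, and for the lines the largest in each direction of each list. Alternatives were DESeq2 1.42.0 and its size factors, total-count scaling, no filter, a minimum of 50 counts, the pair block, summed HSPA1A and HSPA1B, K562 pairs 1 to 3 or 1 and 3, the Ro libraries, and each library left out. Leaving out each other pair with the block, and the summed genes with the block or without K562 DMSO 4, were added after seeing the data. Scripts were tested on simulated data. A few items of the lists are not reported here. Promoter windows and positions came from RefSeq (GRCh38.p14), matched by gene identifier, and were used for sequence only. Shares used Python 3.11.15 and scipy 1.17.1.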

Additional observations from a re-analysis of the deposited data

Results flagged for a closer look

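In each of 40 sets of 4 libraries (10 genes in 4 groups), the highest and lowest library were compared with the rest by Dixon's ratio, which chance exceeds in about 1 in 20 sets, and 2 sets exceeded it. HSPB1 in K562 with Ro had 1 library at 252 CPM (library 1) while the others lay at 139 to 143 CPM. HSF1 in K562 with DMSO had 1 library at 45.6 CPM (library 2, the smallest library) while the others lay at 23.6 to 25.7 CPM.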

How the results depend on the processing

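For Ro in MOLM13, the genes called over the whole table numbered 0 in the main analysis, 317 with the replicate block (also with HSPA1A and HSPA1B summed), 1 with DESeq2 and 266 with DESeq2 and the block. With the block and 1 pair left out they numbered 106, 189, 51 and 354 for pairs 1 to 4. None of these called any of the 10 genes, whose median log2 change ranged from -0.013 to 0.26 with 1 library left out (without MOLM13 DMSO 4 and 3). For Ro in K562, DESeq2 with the block called 2 genes, none of them among the 10. Pairs 1 and 3 with the block called 368 of 15800, among them 4 of the 10. The other alternatives called 0 genes of the whole table, and so 0 of the 10. With 1 library left out, the K562 median ranged from 0.072 (without K562 Ro 1) to 0.33. The difference of the Ro effect between the lines gave 3 genes with DESeq2 and the block. For the lines with DMSO, 3 to 5 of the 10 were called with 1 library left out, with 3 without MOLM13 DMSO 1, MOLM13 DMSO 2 or K562 DMSO 2. In those fits 5048 to 6582 genes were called, of 14608 to 15096 tested. The block kept all 5, but it matches libraries of different lines arbitrarily, so nothing is read from this. Signs turned for HSPA8 with total-count scaling (-0.17) and the Ro libraries (-0.12), DNAJB1 without MOLM13 DMSO 1 (0.025, range -0.28 to 0.025 over left-out libraries), and HSP90AA1 without MOLM13 DMSO 4 (0.015) or K562 DMSO 2 (0.063, range -0.31 to 0.063), none of them called. The cause was not tested for these changes, other than that a left-out library means fewer samples. BAG3's estimate with Ro kept its sign in 21 alternatives in MOLM13 (0.094 to 0.42) and 23 in K562 (0.40 to 0.66). HSPH1's estimate did so too (0.0032 to 0.35 and 0.013 to 0.32). HSP90AA1, HSPB1 and HSF1 kept their sign in MOLM13 only, and HSPA1A, HSPA1B and DNAJB1 in K562 only. These alternatives refit the same libraries and are not independent of each other. HSPA1A in MOLM13 had 3 to 39 counts per library, which limits its precision.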

Other observations

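Over the 8 pairs, the genes whose log2 change with Ro ran most like the median change of the 10 genes, among 8664 genes with a mean of at least 10 CPM, were GTF3C6 (r = 0.991), NAA50 (r = 0.991), NDUFB1 (r = 0.984), ENY2 (r = 0.982) and PTP4A2 (r = 0.980). GTF3C6 is a subunit of the RNA polymerase III factor TFIIIC, NAA50 an N-terminal acetyltransferase, NDUFB1 a subunit of respiratory complex I, ENY2 a subunit of the SAGA coactivator and PTP4A2 a phosphatase. Without K562 pair 4 the correlations were 0.957 to 0.984. The pairs come from only 2 lines, and these values are descriptions picked as the highest of many.

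In the promoter windows, the 3-unit heat shock element was also found for 6 of 18 genes of the list of inducible targets (CHORDC1, DNAJA1, DNAJB6, HSP90AB1, HSPA6 and SERPINH1) and for 0 genes of the other lists.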
